A study of Tupaia belangeri chinensis with 36 samples.

Results

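The miRNAs of the testis were compared between the reproductive (R) and the non-reproductive (NR) season of the Chinese tree shrew (Tupaia belangeri chinensis), a small mammal related to primates, in 5 of the series' 36 samples. The 5 libraries were the measured small RNA libraries of the testis: R 1, R 2 and R 3 of the reproductive season and NR 1 and NR 3 of the non-reproductive season. The deposited column of NR 2 held the mean of NR 1 and NR 3 and was left out. The series also profiled messenger RNA and the head (caput) and tail (cauda) of the epididymis, the duct in which sperm mature and are stored, with 3 biological replicates per tissue and season per the labels. All animals were sexually mature males of 1.5 to 2 years. NR tissue was taken in mid-December 2023 and R tissue in mid-April 2024, and the labels give no treatment. Each season was collected at 1 time, so season and collection date cannot be told apart. RNA integrity numbers were at least 7 and small RNA reads were 50 nt long. The count table listed 1210 miRNA entries, 491 under names of mouse miRNAs and 719 without one.

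A miRNA is a short RNA that guides a silencing complex to messenger RNAs carrying a match to its seed, and so lowers their translation and stability. In seasonal breeders the testis regresses outside the breeding season and loses much of its meiotic and postmeiotic germ cell content. The related miR-34 and miR-449 families are hallmarks of meiotic and postmeiotic male germ cells, miR-202 marks the gonads and their supporting somatic cells, and the miR-17-92 clusters accompany proliferating cells. Other miRNAs mark cells around the tubules or carried along with a dissection: miR-143 and miR-145 smooth muscle, miR-199 and miR-214 mesenchyme, miR-126 endothelium, miR-1, miR-133 and miR-206 striated muscle, and the miR-200 family epithelium.

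Total miRNA counts per library ran from 2166152 to 4800500, and the 10 most abundant entries took 70.7% to 75.1% of them. Levels are given as CPM, counts relative to the library total after TMM scaling among the 5 libraries, always in the order NR 1 and NR 3, then R 1, R 2 and R 3. Differences are log2 values, R minus NR, with a p of edgeR's quasi-likelihood test, adjusted over all entries tested by the Benjamini-Hochberg method. The standard error (SE) beside a difference was derived from that test. It is the absolute log2 difference divided by the square root of the test's F statistic, and is approximate. The tissue's own marker was present in every library: mmu-miR-202-5p was at 63529.8 and 18492 CPM in NR and at 24346, 21522 and 69375 CPM in R, against 8.26 to 511 CPM in the 11 measured epididymal libraries on a scaling common to all tissues. The 2 NR libraries were not alike. Over the 281 tested miRNAs with a mouse name, the median absolute log2 distance to the mean of the R libraries was 0.69 for NR 1 and 0.57 for NR 3, while NR 1 and NR 3 were 0.76 apart. Each R library lay 0.35 to 0.49 from the mean of the other R libraries. NR 1 was outside the range of the R libraries at 96 miRNAs below and 99 above, and NR 3 at 104 below and 80 above. At 41 miRNAs the NR libraries lay on opposite sides of that range.

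Across the whole comparison 496 entries passed the filter on low counts and edgeR called 0 of them (0.0%) at an adjusted p under 0.05. At an unadjusted p under 0.05 it found 20 entries higher in R (4.03%) and 16 lower (3.23%). DESeq2 called 24 entries (4.84%), 13 higher (2.62%) and 11 lower (2.22%). Of its calls 8 had a mouse name: mmu-miR-21a-5p, mmu-miR-100-5p, mmu-miR-181a-2-3p, mmu-miR-574-3p, mmu-miR-381-3p and mmu-miR-206-3p lower, and mmu-miR-125a-5p and mmu-miR-208b-3p higher. The last of these was outside the rule for named miRNAs and was chosen after its value was seen. The smallest adjusted p of edgeR was 0.174 over all entries and 0.269 over those with a mouse name. The R libraries lay wholly above both NR libraries at 84 of the 496 entries (16.9%) and wholly below them at 58 (11.7%). These were 53 of the 281 tested miRNAs with a mouse name above (18.9%) and 44 below (15.7%). The median log2 difference was 0.10 over all tested entries and 0.03 over those with a mouse name, and 145 of the 281 were positive. In a sample of bulk tissue, fewer cells of a type and less of a miRNA per cell cannot be told apart.

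Because the NR libraries differed, each was also set against the R libraries alone, with the spread taken from the R libraries and the lone NR library assumed to vary like them. The comparisons share the R libraries and are not independent of each other. Against NR 1, 618 entries were tested and edgeR called 0, with 70 higher in R (11.3%) and 18 lower (2.91%) at an unadjusted p under 0.05. Against NR 3, 634 were tested and 0 called, with 24 higher (3.79%) and 23 lower (3.63%).

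**Figure D1:**
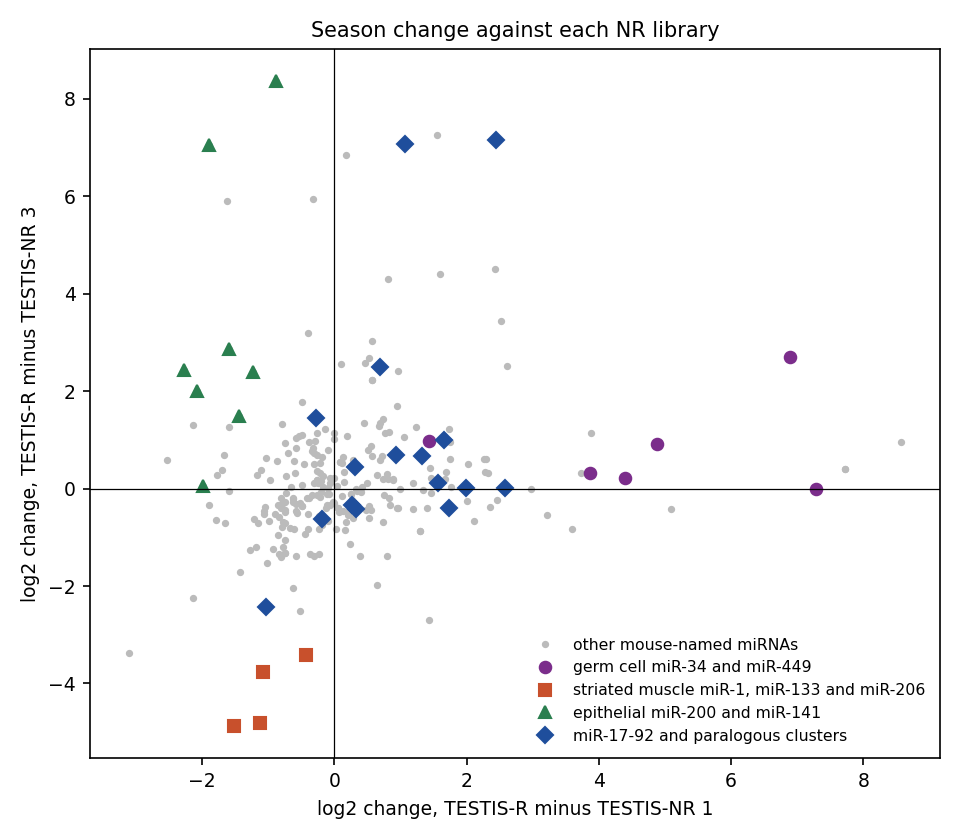
Each point is a miRNA with a mouse name, at its log2 difference of the R libraries from NR 1 on the x axis and from NR 3 on the y axis, and both axes share the 3 R libraries. The germ cell miRNAs spread along the x axis and the striated muscle miRNAs along the y axis below 0, and fits of miRNAs with 0 or 1 counts in a library depend on the prior count.

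The germ cell miRNAs separated NR 1 from the other 4 libraries. Summed over its 8 entries, miR-34 and miR-449 stood at 433 and 5138 CPM in NR and 5965, 8171 and 8154 CPM in R. NR 1 alone was low, and NR 3 lay just under the lowest R library. All 6 tested members had a positive difference, with a median log2 of 1.27 and adjusted p from 0.598 up. R lay wholly above NR for 4 of them, against 18.9% of all tested miRNAs with a mouse name. Set against each NR library the median was 4.64 from NR 1 and 0.62 from NR 3. mmu-miR-34c-5p stood at 172 and 2914 CPM in NR and at 2968, 3764 and 4235 CPM in R. mmu-miR-449a-5p was found at 70.3 and 1027 CPM in NR and at 1849, 2477 and 1915 CPM in R. The R mean was 21.2-fold that of NR 1 for mmu-miR-34c-5p and 29.6-fold for mmu-miR-449a-5p. mmu-miR-34b-5p was listed at 85.6 and 941 CPM in NR and at 801, 1315 and 1658 CPM in R, so that NR 3 fell inside the R range. On a scaling common to all tissues the list summed to 425 to 876 CPM in the caput and 331 to 1271 CPM in the cauda, against 435 to 6289 CPM over the testis libraries.

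The members of the list were not alike in NR 3. mmu-miR-34a-5p was at 104 and 135 CPM in NR and at 243, 436 and 159.7 CPM in R, both NR libraries below every R library (log2 difference 1.23, SE 0.57, adjusted p = 0.714). This member of the family is broadly expressed and a target of p53. mmu-miR-34c-3p, the minor arm of the miR-34c hairpin, stood at 0.247 and 4.79 CPM in NR and at 29.5, 48.8 and 21.7 CPM in R (log2 difference 3.72, SE 1.37, adjusted p = 0.598). Its counts were 1 and 16 in NR 1 and NR 3 against 81, 238 and 47 in the R libraries. In NR 3, which held mmu-miR-34c-5p close to the R level, the minor arm was thus under every R library. mmu-miR-34b-3p was found at 0.740 and 115 CPM in NR and at 73.3, 128 and 165 CPM in R, so here NR 3 lay within the R range, and NR 1 rested on 3 counts.

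**Figure D2:**
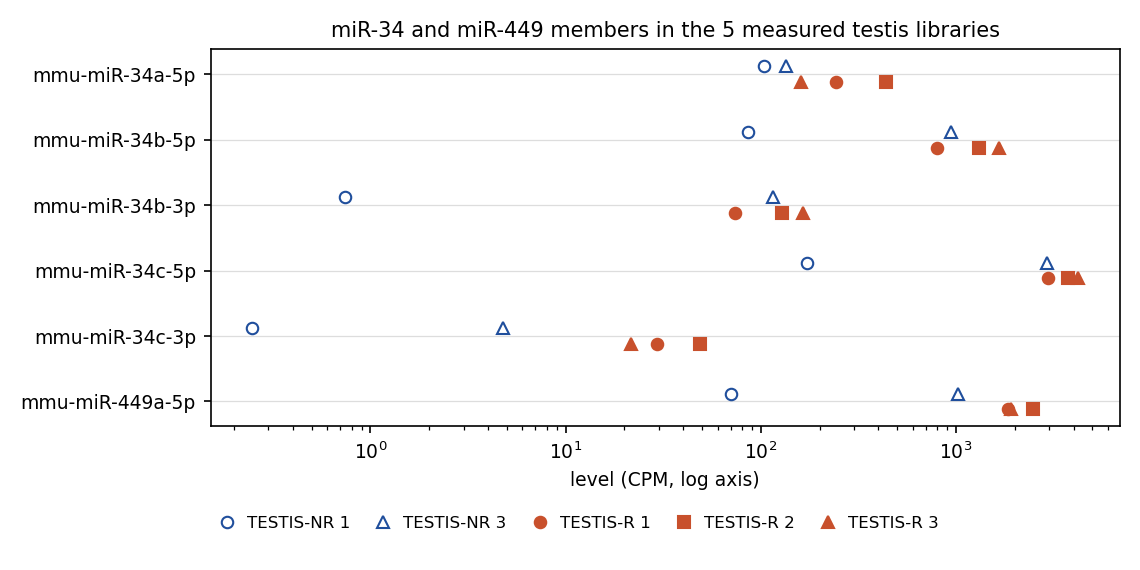
Points give the level of each miR-34 and miR-449 member in the 2 NR and 3 R libraries, on a log axis in CPM. NR 1 is the lowest library for all of them, and NR 3 lies near the R libraries for mmu-miR-34c-5p, mmu-miR-34b-5p and mmu-miR-34b-3p.

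The piRNAs, small RNAs of the germ line, were counted in the same small RNA libraries. There were 0.0664 piRNA counts per miRNA count in NR 1, against 1.51, 1.34 and 2.09 in R 1, R 2 and R 3. The piRNA column of NR 3 was an average and gave no value. That of NR 2 was measured and held 148505 counts, against 259893 in NR 1 and 4151639 to 6440714 in the R libraries. Its miRNA column was an average, so it has no ratio. What part a lower germ cell content has in the miRNA differences of NR 1 was not tested.

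The miR-17-92 cluster and its paralogs, miRNAs of proliferating cells, summed to 13987 and 36000 CPM in NR and 37821, 45353 and 38053 CPM in R. NR 1 was again lowest, while NR 3 lay just under R 1. Of 16 tested members of 20 in the table, 13 had a positive difference, with a median log2 of 0.75. Wholly above NR in R lay 6 of the 16, against 18.9% of all tested miRNAs with a mouse name. The 2 members that share the miR-19 seed lay above both NR libraries in every R library. mmu-miR-19b-3p was listed at 2643 and 3897 CPM in NR and at 5258, 7162 and 7458 CPM in R (log2 difference 1.02, SE 0.29, adjusted p = 0.435). mmu-miR-19a-3p was at 441 and 649 CPM in NR and at 960.4, 1507 and 1727 CPM in R (log2 difference 1.36, SE 0.40, adjusted p = 0.451). In both, NR 3 lay between NR 1 and the R libraries. Near-identical sequences such as these can share reads, so their split is uncertain. mmu-miR-20a-5p stood at 157 and 175 CPM in NR and at 269, 274 and 361 CPM in R, again with both NR libraries below (log2 difference 0.86, SE 0.36, adjusted p = 0.701). The most abundant member stood apart in NR 1 alone: mmu-miR-25-3p was found at 6463 and 24107 CPM in NR and at 24899.6, 29960.3 and 22766 CPM in R.

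The miR-15 family, whose members share a seed and repress cell cycle regulators, lay on both sides. Of 9 tested members, 4 lay wholly above NR in R and 3 wholly below. These shares were 18.9% and 15.7% over all tested miRNAs with a mouse name. mmu-miR-15a-5p was listed at 210.2 and 439 CPM in NR and at 593, 758 and 787 CPM in R (log2 difference 1.14, SE 0.45, adjusted p = 0.644). mmu-miR-15b-5p was at 37.0 and 111 CPM in NR and at 148, 188 and 211 CPM in R (log2 difference 1.30, SE 0.61, adjusted p = 0.714). mmu-miR-16-5p stood at 4008 and 8872 CPM in NR and at 10227, 11219 and 11901 CPM in R, with NR 3 much closer to the R libraries than NR 1 was (log2 difference 0.79, SE 0.38, adjusted p = 0.714). The members of the separate miR-497 and miR-195 cluster, which is expressed in muscle and stroma, lay on the other side. mmu-miR-497a-5p was found at 314 and 392 CPM in NR and at 159.7, 231 and 158 CPM in R (log2 difference -0.95, SE 0.37, adjusted p = 0.644). mmu-miR-195a-5p was listed at 506 and 297 CPM in NR and at 242, 231 and 265 CPM in R (log2 difference -0.70, SE 0.38, adjusted p = 0.726). In both, each R library was under both NR libraries.

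A group of other miRNAs was higher in every R library than in either NR library. The let-7 family, which accompanies differentiation and is restrained by LIN28, had 13 tested members of 23. Of these 10 had a positive difference, with 5 wholly above NR, 1 wholly below and a median log2 of 0.46 over the 13. Among all tested miRNAs with a mouse name 18.9% lay wholly above and 15.7% wholly below. mmu-let-7f-5p was at 981 and 727 CPM in NR and at 2088, 1845 and 1318 CPM in R (log2 difference 1.04, SE 0.34, adjusted p = 0.537). mmu-let-7a-5p stood at 339 and 209 CPM in NR and at 688, 575 and 368 CPM in R (log2 difference 0.99, SE 0.45, adjusted p = 0.714). mmu-let-7g-5p was found at 39.2 and 22.8 CPM in NR and at 92.3, 56.6 and 48.0 CPM in R, and in all 3 NR 3 was the lowest library. Members of let-7 differ by single bases, so reads can be shared among them.

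mmu-miR-125a-5p was listed at 295 and 322 CPM in NR and at 615, 539.9 and 509 CPM in R, the 2 NR libraries close to each other (log2 difference 0.85, SE 0.31, adjusted p = 0.598). DESeq2 called it with an adjusted p of 0.00350. mmu-miR-29b-3p, a member of the family that represses collagens and other matrix genes, was at 987 and 741 CPM in NR and at 1356, 1411 and 1637 CPM in R (log2 difference 0.76, SE 0.28, adjusted p = 0.598). mmu-miR-29a-3p stood at 21086 and 26014 CPM in NR and at 30422, 30488 and 29072 CPM in R, a smaller difference in the same direction (log2 difference 0.35, SE 0.16, adjusted p = 0.714). mmu-miR-29c-3p, the most abundant member, was found at 77629.6 and 56932 CPM in NR and at 61688, 66619 and 69938 CPM in R, and here the seasons overlapped. mmu-miR-216a-5p, a miRNA best known from the exocrine pancreas, was listed at 70.6 and 98.6 CPM in NR and at 264, 137 and 279 CPM in R (log2 difference 1.42, SE 0.51, adjusted p = 0.598). mmu-miR-136-5p, from the imprinted DLK1-DIO3 region, was at 211 and 343 CPM in NR and at 392, 797 and 954 CPM in R (log2 difference 1.37, SE 0.53, adjusted p = 0.644). mmu-miR-208b-3p, a miRNA hosted by a slow myosin heavy chain gene, stood at 1.48 and 1.50 CPM in NR and at 9.48, 7.58 and 11.1 CPM in R (log2 difference 2.62, SE 0.89, adjusted p = 0.569), and DESeq2 called it with an adjusted p of 0.0219.

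**Figure D3:**
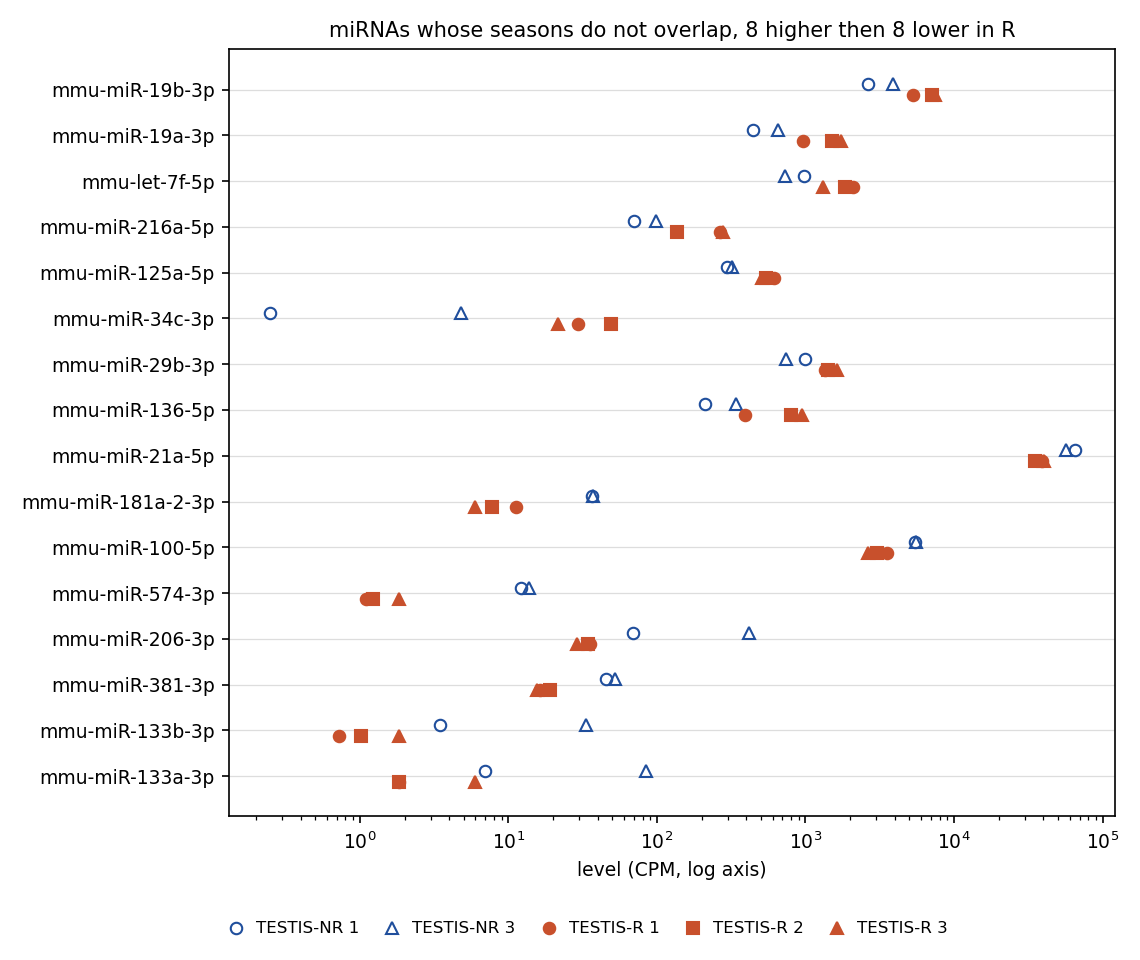
Points give the levels, on a log axis in CPM, of the miRNAs whose R libraries lie wholly above or wholly below both NR libraries and have the smallest unadjusted p. The 2 NR libraries sit together for mmu-miR-21a-5p, mmu-miR-100-5p, mmu-miR-181a-2-3p, mmu-miR-574-3p and mmu-miR-381-3p, and apart for mmu-miR-206-3p and the miR-133 members.

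The miRNAs that were lower in R against both NR libraries were led by an abundant one. mmu-miR-21a-5p, a miRNA found in many cell types and raised in growth and injury, was found at 64820.3 and 57068 CPM in NR and at 39036, 35077 and 40122 CPM in R (log2 difference -0.68, SE 0.14, adjusted p = 0.269). All R libraries were below both NR libraries, and the NR mean was 1.60-fold the R mean. mmu-miR-100-5p, a miRNA that represses mTOR, was listed at 5489 and 5518 CPM in NR and at 3513, 3013 and 2637 CPM in R (log2 difference -0.85, SE 0.22, adjusted p = 0.406). Its minor arm lay on the same side: mmu-miR-100-3p was at 89.1 and 43.4 CPM in NR and at 29.2, 37.7 and 17.5 CPM in R (log2 difference -1.23, SE 0.58, adjusted p = 0.714). DESeq2 called mmu-miR-21a-5p (adjusted p = 0.00232) and mmu-miR-100-5p (adjusted p = 0.00356).

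The miR-99, miR-100 and miR-125 families, which are made in part from shared clusters, had 10 tested members, with a median log2 of -0.25. Of these 8 were negative, 5 lay wholly below NR and 1, mmu-miR-125a-5p, wholly above. Among all tested miRNAs with a mouse name 15.7% lay wholly below and 18.9% wholly above. mmu-miR-125b-5p stood at 28786 and 54415 CPM in NR and at 52089, 50366 and 51363 CPM in R, so only NR 1 stood apart and NR 3 was slightly above the R libraries.

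mmu-miR-181a-2-3p was found at 36.5 and 37.1 CPM in NR and at 11.3, 7.79 and 6.00 CPM in R (log2 difference -2.13, SE 0.54, adjusted p = 0.406). It is the minor arm of a miR-181a precursor, and the NR libraries lay close together, their mean 4.40-fold the R mean. The major arm lay on the opposite side: mmu-miR-181a-5p was listed at 6388 and 8706 CPM in NR and at 11576, 10635 and 10021 CPM in R (log2 difference 0.51, SE 0.21, adjusted p = 0.701). miR-181a is made from a pair of precursors that give the same major arm, so the 2 values need not come from the same gene. mmu-miR-574-3p was at 12.1 and 13.8 CPM in NR and at 1.09, 1.23 and 1.85 CPM in R (log2 difference -3.19, SE 0.85, adjusted p = 0.435), the lowest level among these miRNAs. mmu-miR-381-3p, another miRNA of the DLK1-DIO3 region, stood at 45.6 and 52.4 CPM in NR and at 16.4, 19.1 and 15.7 CPM in R (log2 difference -1.52, SE 0.44, adjusted p = 0.435). DESeq2 gave adjusted p of 0.00156, 0.00309 and 0.00166 for mmu-miR-181a-2-3p, mmu-miR-574-3p and mmu-miR-381-3p. Over the 30 tested of 54 miRNAs of the DLK1-DIO3 region as a whole, 6 lay wholly above NR and 2 wholly below. These shares were 18.9% and 15.7% over all tested miRNAs with a mouse name. The median log2 of the 30 was 0.12.

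The striated muscle miRNAs had the largest median difference of the 33 lists, and it came mostly from NR 3. The list summed to 158 and 1119 CPM in NR and 102, 91.6 and 94.6 CPM in R. NR 3 stood far above the other 4 libraries, and NR 1 moderately above the R libraries. All 4 tested members lay wholly below NR in R, against 15.7% of all tested miRNAs with a mouse name. Their median log2 was -3.35, and it was -1.10 against NR 1 and -4.29 against NR 3. Outside this list, mmu-miR-208b-3p, hosted by a slow myosin heavy chain gene, lay on the other side, wholly above NR in R as given above. mmu-miR-206-3p, a miRNA of skeletal muscle, was found at 69.1 and 418 CPM in NR and at 35.4, 34.2 and 29.1 CPM in R (log2 difference -2.89, SE 0.81, adjusted p = 0.435). mmu-miR-1a-3p was listed at 77.7 and 583 CPM in NR and at 63.8, 54.5 and 56.3 CPM in R (log2 difference -2.50, SE 0.86, adjusted p = 0.569). NR 3 held 12.7-fold the R mean of mmu-miR-206-3p. mmu-miR-133a-3p was at 6.91 and 84.2 CPM in NR and at 1.82, 1.84 and 6.00 CPM in R (log2 difference -3.82, SE 1.26, adjusted p = 0.542). mmu-miR-133b-3p stood at 3.45 and 33.3 CPM in NR and at 0.729, 1.02 and 1.85 CPM in R (log2 difference -3.91, SE 1.23, adjusted p = 0.495). On the common scaling the list summed to 292 to 904 CPM in the caput and 3204 to 7541 CPM in the cauda. The testis libraries held 69.6 to 898 CPM. What part other tissue in the NR 3 dissection had was not tested.

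**Figure D4:**
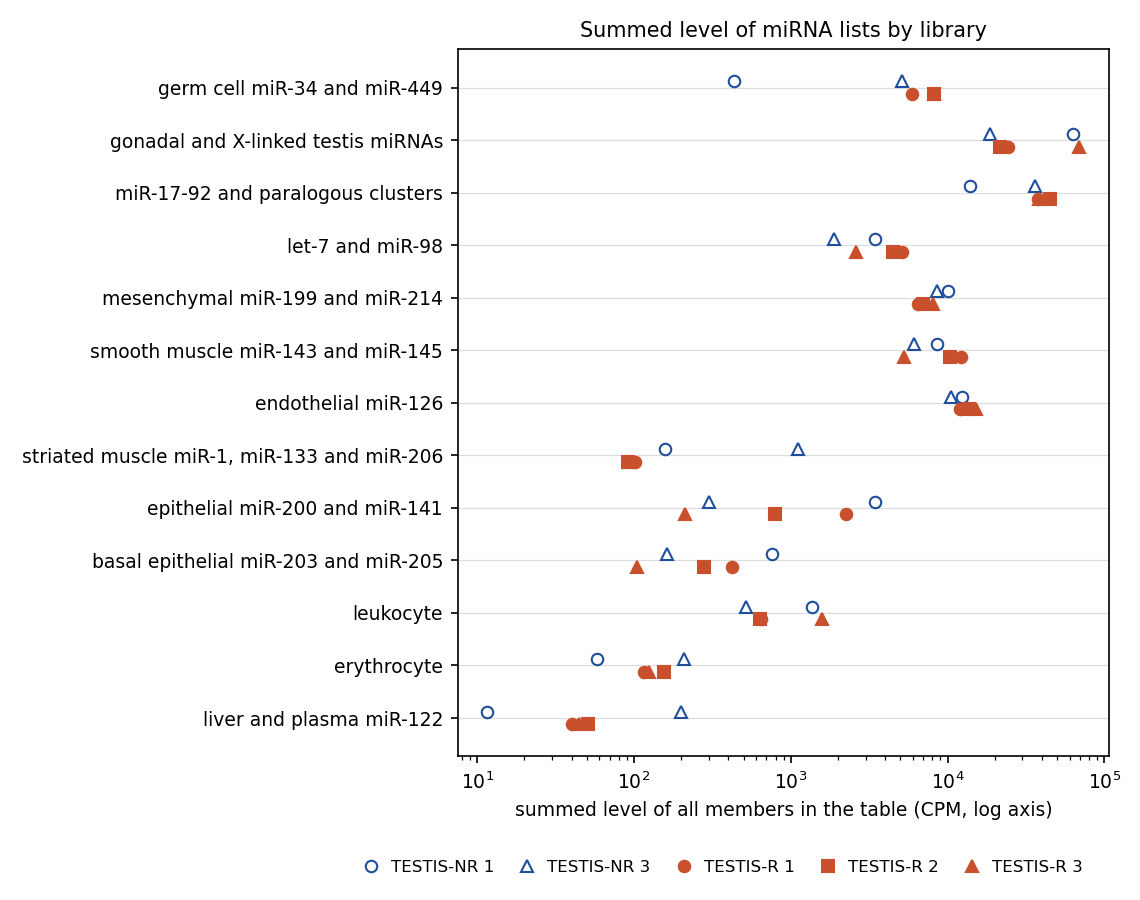
Points give the summed level of each marker list in the 2 NR and 3 R libraries, on a log axis in CPM. The germ cell sum is lowest in NR 1, the striated muscle sum is highest in NR 3, and the epithelial sum spreads within both seasons.

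Of the 6 tested mesenchymal miR-199 and miR-214 members, 5 lay wholly below NR in R, against 15.7% of all tested miRNAs with a mouse name, with a median log2 of -0.47, and their sums were 10101 and 8598 CPM in NR and 6481, 6962 and 8098 CPM in R. mmu-miR-199a-3p was found at 4902 and 4169 CPM in NR and at 3149, 3426 and 3937 CPM in R (log2 difference -0.37, SE 0.22, adjusted p = 0.726). Identical counts were listed for mmu-miR-199b-3p, whose mature sequence is shared. Both entries are among the 5 and in the sums, so the same reads enter the count and the sums more than once. Of 5 tested miR-148 and miR-152 members 4 lay wholly below NR in R, with a median log2 of -0.50. mmu-miR-152-3p was listed at 1150.2 and 989 CPM in NR and at 827, 749.8 and 742 CPM in R. mmu-miR-148a-3p was at 5552 and 3415 CPM in NR and at 3315, 3312 and 2911 CPM in R, where NR 3 lay just above R 1. The miR-23, miR-24 and miR-27 list had 3 of 5 members wholly below NR in R and a median of -0.31. Smooth muscle and endothelial markers overlapped between seasons. mmu-miR-143-3p stood at 8137 and 5794 CPM in NR and at 11852, 9832 and 4950.3 CPM in R (log2 difference 0.35, SE 0.43, adjusted p = 0.985). mmu-miR-126a-5p was found at 9308 and 7685 CPM in NR and at 9086, 10216 and 11888 CPM in R (log2 difference 0.29, SE 0.21, adjusted p = 0.809).

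Markers of epithelium varied within each season. The miR-200 and miR-141 list summed to 3437 and 299 CPM in NR and 2240.3, 799 and 211 CPM in R, high in NR 1 and R 1 and low in NR 3 and R 3. Of its 8 tested members 0 lay wholly on 1 side, against 18.9% wholly above and 15.7% wholly below among all tested miRNAs with a mouse name. All 8 were lower in R against NR 1, and all 8 were higher in R against NR 3. mmu-miR-200a-3p was listed at 1018 and 36.2 CPM in NR and at 495, 131 and 12.0 CPM in R, so that both seasons held a high and a low library. mmu-miR-205-5p, a marker of basal epithelium, was at 504 and 43.1 CPM in NR and at 153, 183 and 3.69 CPM in R, lowest in R 3 and highest in NR 1. On the common scaling the miR-200 list reached 118106 to 148670.5 CPM in the caput and 64932 to 95724 CPM in the cauda, where epithelium lines the duct, against 163 to 3450.2 CPM in the testis libraries. Its part in other differences was not tested.

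Leukocyte markers, 4 tested of 6, summed to 1372 and 521 CPM in NR and 644, 636 and 1577 CPM in R, highest in NR 1 and R 3. mmu-miR-155-5p, a miRNA of activated lymphocytes and macrophages, stood at 141 and 102 CPM in NR and at 99.5, 67.2 and 62.8 CPM in R (log2 difference -0.67, SE 0.44, adjusted p = 0.808). It was the 1 leukocyte member of the 4 tested wholly below NR in R, against 15.7% of all tested miRNAs with a mouse name. mmu-miR-142a-5p, a marker of all blood lineages, was found at 65.4 and 27.6 CPM in NR and at 31.4, 16.4 and 54.5 CPM in R. The 3p arm of miR-142a was the more abundant, with log2 ratios of 5p to 3p counts from -5.05 to -3.69 over the libraries. Of the 4 tested leukocyte members 3 had a negative difference and 1 a positive one, at a log2 of 0.135. mmu-miR-150-5p, a lymphocyte miRNA, had 0 and 2 counts in NR and 0, 0 and 1 in R. mmu-miR-223-3p, a miRNA of myeloid cells, was listed at 26.2 and 34.5 CPM in NR and at 17.5, 9.63 and 31.9 CPM in R, with overlap between seasons. Erythrocyte markers, 4 tested of 7, summed to 58.0 and 208 CPM in NR and 117, 154 and 124 CPM in R. Of the 4, 3 had a negative difference and 1 a positive one, at a log2 of 1.325. That 1 lay wholly above NR in R, against 18.9% of all tested miRNAs with a mouse name. mmu-miR-486a-5p, an erythroid and muscle miRNA, was at 23.4 and 98.9 CPM in NR and at 52.1, 69.9 and 50.3 CPM in R. mmu-miR-122-5p, the main miRNA of the liver and frequent in plasma, stood at 11.6 and 192 CPM in NR and at 31.4, 36.9 and 26.3 CPM in R, so that NR 3 was again far above the rest (log2 difference -1.69, SE 1.10, adjusted p = 0.808). The other of the 2 tested miR-122 entries lay on the opposite side, wholly above NR in R (log2 difference 2.06). Both together summed to 11.6 and 199 CPM in NR and 40.5, 50.8 and 44.8 CPM in R, most of it mmu-miR-122-5p.

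The gonadal marker set R 3 and NR 1 apart from the other libraries. The levels of mmu-miR-202-5p given above were 63529.8 and 69375 CPM in NR 1 and R 3, the 2 highest of the 5 (log2 difference -0.09, SE 0.76, adjusted p = 0.999). The major arms of miR-135a and miR-135b, 2 of the 4 tested miR-135 members, were also highest in these libraries. mmu-miR-135a-5p was found at 2473 and 895 CPM in NR and at 1601, 1196 and 4039 CPM in R (log2 difference 0.44, SE 0.73, adjusted p = 0.992). mmu-miR-135b-5p was listed at 2052 and 1051 CPM in NR and at 1628, 1343 and 4210.3 CPM in R (log2 difference 0.63, SE 0.64, adjusted p = 0.942). The seasons overlapped in all 3.

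Some miRNAs known from nerve and endocrine cells were low in NR 1 alone. mmu-miR-375-3p, a miRNA of pancreatic islets and other secretory cells, was at 57.2 and 567 CPM in NR and at 723, 675 and 899.8 CPM in R (log2 difference 1.29, SE 0.97, adjusted p = 0.840). mmu-miR-9-5p, a miRNA of neural progenitors, stood at 374 and 1402 CPM in NR and at 1917, 1444 and 2343 CPM in R (log2 difference 1.10, SE 0.64, adjusted p = 0.726). mmu-miR-132-5p, the 5p arm of a miRNA induced by cyclic AMP signalling, was found at 75.7 and 476 CPM in NR and at 383, 444 and 340.2 CPM in R, with NR 3 above every R library (log2 difference 0.50, SE 0.80, adjusted p = 0.992). This arm held more counts than the 3p arm in every library. The neural and endocrine list had 8 tested members of 22, with a median log2 of 0.51. Wholly above NR in R lay 4 of the 8 and wholly below 1. These shares were 18.9% and 15.7% over all tested miRNAs with a mouse name.

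For several of the most abundant miRNAs of the testis the seasons overlapped. mmu-miR-101a-3p was listed at 185285 and 237386 CPM in NR and at 195291, 195042 and 189047 CPM in R (log2 difference -0.13, SE 0.14, adjusted p = 0.942). The entry mmu-miR-101c held nearly the same values (185268 CPM in NR 1), and reads of the pair cannot be told apart. mmu-miR-30a-5p was at 25149 and 30654 CPM in NR and at 43428, 45082 and 30018 CPM in R (log2 difference 0.50, SE 0.24, adjusted p = 0.714). mmu-miR-103-3p stood at 17334 and 29733 CPM in NR and at 23703, 23814 and 15616 CPM in R (log2 difference -0.16, SE 0.33, adjusted p = 0.999). mmu-miR-10b-5p, a miRNA encoded in a HOX cluster, was found at 6579 and 4416 CPM in NR and at 4715, 4109.6 and 2951 CPM in R (log2 difference -0.49, SE 0.31, adjusted p = 0.808). mmu-miR-196a-5p, also from the HOX clusters, was listed at 1494 and 514 CPM in NR and at 744, 657 and 597 CPM in R, so that NR 1 was high and NR 3 below all R libraries (log2 difference -0.59, SE 0.51, adjusted p = 0.870). The miR-10 and miR-196 list had 0 of 7 tested members wholly on 1 side and a median log2 of -0.59. Among all tested miRNAs with a mouse name 18.9% lay wholly above NR in R and 15.7% wholly below.

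Each hairpin precursor yields a 5p and a 3p arm, and their ratio within a library does not depend on scaling between libraries. It was computed for the 36 precursors with at least 10 counts of each arm in every library, as a description with no test. The log2 ratio of 5p to 3p counts overlapped between seasons for 33 of them. It was lower in every R library for miR-181c, at 4.33 and 3.27 in NR and 1.89, 3.11 and 1.73 in R. The minor arm lay higher in R: mmu-miR-181c-3p was at 4.93 and 6.59 CPM in NR and at 17.9, 7.38 and 25.4 CPM in R. The ratio was higher in R for miR-99b, at 3.65 and 3.60 in NR and 4.20, 4.32 and 4.53 in R, and for miR-191, at 4.83 and 3.81 in NR and 4.86, 5.15 and 5.51 in R. The values for miR-191 in NR 1 and R 1 were nearly equal. For miR-30e the ratio was 1.36 and 1.28 in NR and 1.28, 1.30 and 1.30 in R, close to constant over the libraries. For miR-132 it was 2.00 and 5.39 in NR and 4.01, 3.69 and 3.30 in R, with NR 1 and NR 3 at the ends of the range. For miR-202 it was 10.70 and 8.02 in NR and 8.51, 8.86 and 10.20 in R, highest in the libraries that also held the most mmu-miR-202-5p.

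**Figure D5:**
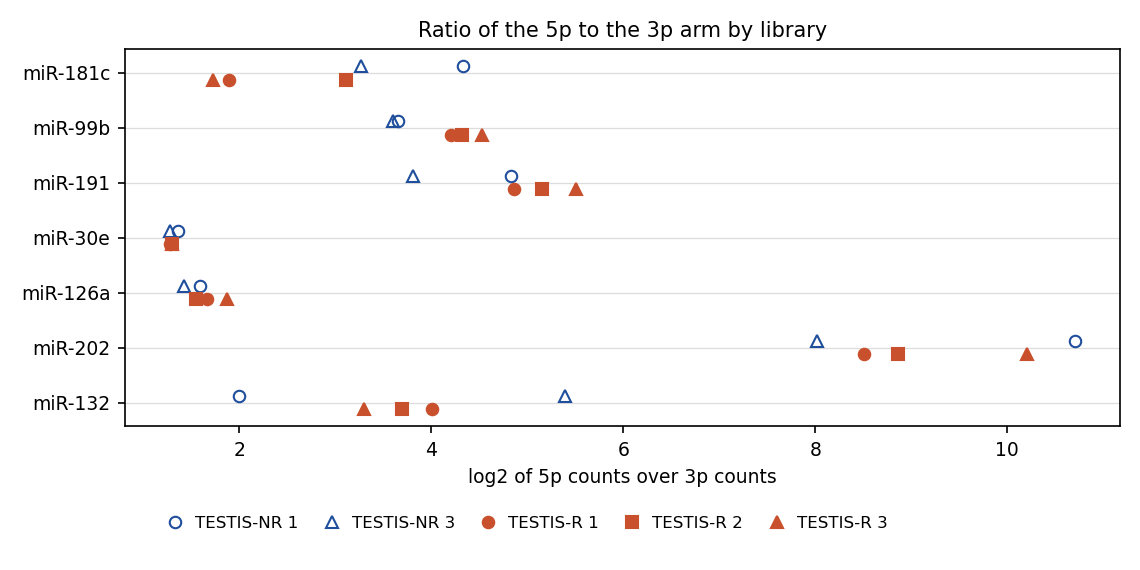
Points give the log2 ratio of 5p to 3p counts of a precursor in the 2 NR and 3 R libraries, for the precursors whose seasons do not overlap and for miR-30e, miR-126a, miR-202 and miR-132. The R libraries lie below NR for miR-181c and above NR for miR-99b and miR-191.

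The 719 entries without a mouse name are listed in the table without a family and are given here as counts. The filter passed 215. DESeq2 called 16 of them and edgeR 0, with 12 higher and 6 lower before adjustment (p under 0.05). Over all 496 entries tested DESeq2 called 4.84%, and edgeR found 4.03% higher and 3.23% lower before adjustment. The R libraries lay wholly above NR at 31 and wholly below at 14 of the 215, against 16.9% and 11.7% of all 496. There were 23 with 0 counts in both NR libraries and 6 with 0 counts in all R libraries, while no tested miRNA with a mouse name was at 0 throughout a season. The most abundant entry of the former kind was at 0 counts in NR and at 105, 112 and 331 CPM in R. Against a floor of 3 counts over the NR group it was at least 450-fold higher in R (adjusted p = 0.174). This bound was 203-fold without NR 1, 247-fold without NR 3 and 268-fold without R 3. The most abundant of the latter kind had no counts in R, and its NR levels were 21.7 and 114 CPM (adjusted p = 0.314). Over a floor of 3 counts in the R group its NR mean was at least 221-fold higher, 70.8-fold without NR 3 and 370-fold without NR 1. No source used here names molecular identifiers, so such floors cover counting error only.

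Whether the season differences of the testis were particular to it was tested against the epididymis as an interaction, the season difference of the testis minus that of the caput or the cauda. edgeR called 0 of 677 entries (0.0%) against the caput, with 7 higher (1.03%) and 20 lower (2.95%) before adjustment (p under 0.05), while DESeq2 called 15. Against the cauda it called 0 of 713 (0.0%), with 18 higher (2.52%) and 44 lower (6.17%), and DESeq2 called 20. These counts of 0 are from the fits with TMM scaling, the default filter and the libraries of the tissues compared. With all libraries kept, edgeR called 1 entry against the caput with library totals, 1 with a filter of 50 CPM in 1 library, and 1 against the cauda with all tissues in 1 fit, each without a mouse name. Leaving out NR 1 or NR 3 leaves 1 testis library in that season, which is then assumed to vary like the libraries of the other groups. Without NR 3 edgeR called 3 entries against the cauda, among them the germ cell miRNA mmu-miR-34c-5p, whose interaction was then 3.29 (adjusted p = 0.0403), against 0.60 (adjusted p = 0.9999) with NR 3. NR 3 was the NR library with this miRNA near the R level, so its removal by itself raises that value. Without NR 1 it called 2 against the cauda and 2 against the caput. The 1 of these with a mouse name was mmu-miR-141-5p, an epithelial miRNA with 95 and 0 counts in NR and 50, 68 and 13 in R, named after its value was seen. Without R 1 it called 1 entry against the caput, and without R 3 it called 1 against the cauda, both without a mouse name. Season differences were fitted in each tissue alone, with its own scaling, and interactions in joint fits, so the former do not subtract exactly to the latter. For mmu-miR-574-3p the season difference was -3.19 for the testis, 0.01 for the caput and -0.81 for the cauda. Its interaction was -3.47 (SE 0.88, adjusted p = 0.464) against the caput and -2.59 (SE 0.72, adjusted p = 0.469) against the cauda. For mmu-miR-181a-2-3p the season differences were -2.13, 0.68 and -0.10 in the testis, caput and cauda, with interactions of -3.11 (SE 0.79, adjusted p = 0.464) against the caput and -2.26 (SE 0.62, adjusted p = 0.469) against the cauda. For mmu-miR-21a-5p they were -0.68, -0.26 and 0.42, the cauda lying on the other side of 0, with an interaction against the cauda of -1.32 (SE 0.37, adjusted p = 0.469). For mmu-miR-100-5p they were -0.85, -0.36 and 0.09, with -1.16 (SE 0.29, adjusted p = 0.469) against the cauda. For mmu-miR-19a-3p they were 1.36, -0.78 and 0.73, with 1.88 (SE 0.56, adjusted p = 0.862) against the caput. For mmu-miR-21a-5p, mmu-miR-100-5p and mmu-miR-19a-3p the interaction with the other part of the epididymis is not given here. The season difference of that part had the same sign as that of the testis. For mmu-miR-125a-5p all were positive, at 0.85, 0.81 and 0.63.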

How the data were processed

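Small RNA of the testis, read as single 50 nt reads, was counted by the authors, who deposited a table of raw counts per miRNA and one of raw counts per piRNA. featureCounts and bedtools are named in the submitters' processing notes. Versions, aligner and build were not given in the sources used here. Entries carry mouse miRNA names where they have one, and reads of near-identical miRNAs cannot be told apart. Samples were grouped by tissue and season from the labels. The deposited column of TESTIS-NR 2, like that of CAPUT-NR 2, held, at 100% of its group's entries with a count, the mean of the other 2, rounded up or down. In measured miRNA columns this share was at most 5.35%.

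The season difference, R minus NR, was fitted in edgeR 4.0.16 (R 4.3.3) with TMM scaling, the default filter for low counts and the quasi-likelihood test. An entry was called when its Benjamini-Hochberg adjusted p fell under 0.05. Interactions tested the season difference of the testis against that of the caput or cauda. Distances between libraries were of log2(CPM + 1). Alternatives were other scalings and filters, DESeq2 1.42.0, a replicate block, other sets of libraries or entries, a log2 change of at least 1 and leaving out each library. The labels call the replicates biological.

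Named miRNAs were the 8 higher and 8 lower with the smallest p among those with a mouse name, non-overlapping groups and at least 10 CPM in the higher group. To these were added the 10 most abundant, up to 3 members of each of 33 family lists by p, all measured members of the miR-34 and miR-449 list, up to 5 per direction called in a fit, and the 6 with the smallest p in each direction against either NR library alone. Not every miRNA the rule allows is described, and mmu-miR-208b-3p, mmu-miR-150-5p and mmu-miR-141-5p were added after their values were seen. The miRNAs, the lists and the 10 count minimum of the arm ratios were chosen with earlier results of these data known. No group had the 4 libraries needed to test for a library far from the others.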

Additional observations from a re-analysis of the deposited data

How the results depend on the processing

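edgeR called 0 testis miRNAs between seasons under both other scalings, without a filter, with a filter of 50 CPM in 1 library, with miRNAs under mouse names alone and without mmu-miR-101c. The test for a log2 change of at least 1 also called 0, but it is stricter than the main test, so it could add no call. edgeR called 1, mmu-miR-574-3p, with all measured miRNA libraries in 1 fit, and 9 with the averaged columns kept as libraries, which adds no measurement. DESeq2 called 24. Leaving out each library gave 0 to 0 calls. For testis minus caput the counts were 1 with library totals, 1 with the 50 CPM filter, 15 with DESeq2, 6 with averaged columns kept, and 0 to 2 without a library, 2 without TESTIS-NR 1 and 1 without TESTIS-R 1. For testis minus cauda they were 20 with DESeq2, 1 with all libraries in 1 fit, 2 with averaged columns kept, and 0 to 3 without a library, 2 without TESTIS-NR 1, 3 without TESTIS-NR 3 and 1 without TESTIS-R 3. The other settings gave 0 for both, and the cause of these changes was not tested.

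Replicate numbers 1 and 3 occur in both seasons, but the labels do not say that a number marks a shared animal, batch or day. With the replicate number as a block, edgeR called 0 miRNAs in the testis and 0 in either comparison with the epididymis. In the testis fit R 2 is the only library of its block, so the season difference rests on the libraries numbered 1 and 3. That fit has little power, and its 0 calls say little. In the block fit the log2 difference was 0.26 for mmu-miR-202-5p, 0.74 for mmu-miR-141-3p and 0.0876 for mmu-miR-486a-5p, against negative values without it. Deviations from the group mean correlated at 0.347 between NR 1 and R 1 and at 0.267 between NR 3 and R 3. With 2 NR libraries their deviations are opposite, so NR 3 and R 1 correlated at -0.347 and NR 1 and R 3 at -0.267.

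Of 64 named miRNAs, all but mmu-miR-150-5p and mmu-miR-141-5p, which were not followed here, 47 kept the sign of their log2 difference under every alternative run. Many were named for a small p or for groups that do not overlap in these same libraries, which by itself favours a kept sign. The share over all tested miRNAs was not computed. With miRNAs under mouse names alone, mmu-miR-29c-3p turned to 0.0202. Leaving out 1 library turned the sign of 17, in 16 cases through an NR library and in 6 through an R library. Their log2 differences ran from -0.19 to 0.82 for mmu-miR-125b-5p, -0.0126 to 7.29 for mmu-miR-34b-3p, -0.24 to 0.11 for mmu-miR-29c-3p, -0.39 to 2.35 for mmu-miR-132-5p, -0.87 to 0.94 for mmu-miR-202-5p, -2.70 to 1.44 for mmu-miR-122-5p, -2.81 to 2.44 for mmu-miR-200a-3p, -2.14 to 1.32 for mmu-miR-205-5p and -1.24 to 2.40 for mmu-miR-141-3p. They also ran from -1.005 to 0.19 for mmu-miR-142a-5p, -0.88 to 1.29 for mmu-miR-486a-5p, -0.40 to 0.0496 for mmu-miR-101a-3p, -0.40 to 0.0495 for mmu-miR-101c, -0.59 to 0.27 for mmu-miR-103-3p, -0.10 to 1.07 for mmu-miR-135b-5p, -0.30 to 1.23 for mmu-miR-135a-5p and -1.18 to 0.27 for mmu-miR-196a-5p. The NR group rests on 2 libraries. Depth limits entries of few counts, such as mmu-miR-34c-3p with 1 count in NR 1.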
